A study of Mus musculus with 6 samples.

Results

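The genes described here encode the core of the splicing machinery and the proteins that coat nascent RNA: the Srsf, Hnrnp, Snrp, Sf3 and Prpf families. They were taken from the table of raw counts by symbol, among its protein-coding genes: Srsf, Prpf, Sf3a or Sf3b followed by a digit, any symbol that starts with Hnrnp, and Snrp followed by a letter from a to g or a digit. The rule found 63 genes of 21606 in the table, 15023 of them protein-coding, and used no measured value. There are 10 Srsf, 20 Hnrnp, 11 Snrp, 9 Sf3 and 13 Prpf genes. The processed pseudogene Srsf3-ps, with 216 counts, was left out by its biotype.

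RNA was measured in ALDHbr cells of the bone marrow, a fraction sorted for its aldehyde dehydrogenase activity and rich in blood progenitors, from wild-type C57BL/6 mice, a common inbred strain. There were 3 libraries from females and 3 from males, with no treatment and no age given in the labels. The libraries were made by BRB-seq, in which each sample is barcoded at reverse transcription from the poly(A) tail, so that reads lie near the 3' ends of mRNAs. The question set by the design is how RNA levels in these cells differ between the sexes. The labels do not say whether the 3 libraries of a sex came from separate animals or how many animals each holds, so the p-values reflect no more than how far these samples lie apart, and that spread may be technical.

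Introns are removed by the spliceosome, which is built from small nuclear ribonucleoproteins (snRNPs). Most of these hold a small RNA in a ring of Sm proteins, with added proteins of their own. The U1 particle marks the start of an intron and the U2 particle, with its SF3a and SF3b complexes, the branch point; the U4/U6.U5 tri-snRNP then joins and the complex is rearranged for catalysis. SR proteins (Srsf) mostly promote the use of exons, and hnRNPs bind pre-mRNA widely, often oppose exon use and also act in export, stability and translation. Mutations of SF3B1 and SRSF2 are frequent in human myeloid neoplasms, which makes these genes of interest in blood progenitors.

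Sequence before the start site was available from RefSeq (GRCm38.p6) for 55 of the 63 genes, as 250 bases before to 50 bases after the start. That start equalled the start of the principal transcript in GENCODE M21 for 16 of the 55. The median offset was 20 nt, and that of Hnrnpl was 2349 nt, so some windows lie away from that start. The stretches below are those of the member with the highest CPM of the Srsf, Hnrnp and Sf3 families, shown because the families differed in the motifs held there. Each stretch ends before the first base that either RefSeq or GENCODE M21 assigns to the gene. Capitals mark the motifs searched, on either strand. They are the CCAAT box and the ETS core CCGGAAG. Srsf3 is chr17:29032410-29032627 (plus strand), Hnrnpa2b1 chr6:51469895-51470095 (minus strand) and Sf3b2 chr19:5295456-5295705 (minus strand).
Srsf3: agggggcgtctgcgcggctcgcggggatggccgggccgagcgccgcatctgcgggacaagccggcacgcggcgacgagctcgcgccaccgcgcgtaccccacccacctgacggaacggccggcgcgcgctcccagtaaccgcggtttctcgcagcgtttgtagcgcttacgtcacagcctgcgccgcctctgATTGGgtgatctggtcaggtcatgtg
Hnrnpa2b1: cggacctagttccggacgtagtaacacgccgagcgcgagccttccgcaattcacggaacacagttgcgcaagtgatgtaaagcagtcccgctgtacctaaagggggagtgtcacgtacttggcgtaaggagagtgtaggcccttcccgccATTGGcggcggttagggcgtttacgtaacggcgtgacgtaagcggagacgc
Sf3b2: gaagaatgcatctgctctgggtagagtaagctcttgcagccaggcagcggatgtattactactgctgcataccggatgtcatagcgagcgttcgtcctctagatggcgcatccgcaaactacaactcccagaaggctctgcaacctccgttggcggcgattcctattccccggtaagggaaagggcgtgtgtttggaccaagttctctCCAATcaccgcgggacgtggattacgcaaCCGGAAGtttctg

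The upstream stretches of Srsf3 and Hnrnpa2b1 each held a CCAAT box in the reverse orientation, and that of Sf3b2 held a CCAAT box and an ETS core. Over the whole windows, CCGGAAG was found in 19 of 55 members (34.5%), against 22.6% of 6646 tested protein-coding genes and 16.3% of 11858 protein-coding genes of the table. It was present in 6 of 7 Sf3 windows, 4 of 10 Srsf, 4 of 9 Snrp, 3 of 11 Prpf and 2 of 18 Hnrnp windows. The order was different for CCAAT, which was found in 28 of 55 members (50.9%, against 38.9% of tested and 38.3% of all protein-coding genes), and in 13 of 18 Hnrnp but 2 of 7 Sf3 windows. The E-box CACGTG was present in 14.5% of members and 10.9% of tested genes, and the TATA box TATAAA in 10.9% and 6.30%. The NRF1 core GCATGCGC was found in 1 member, Srsf7, which is 1.82% against 6.59% of tested genes, and the YY1 core AAGATGGCG in 2 members, Sf3a1 and Prpf38b, which is 3.64% against 4.18%. None of these motifs holds another, and the median window held 25 CpG dinucleotides in members and 22 in tested genes. A match is a description of the letters and no measure of binding.

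The members were among the better measured genes. Library totals ran from 679724 to 1475224 counts, with the female libraries deeper, at 1199551 or more against 880074 or fewer in males, and the members took 1.57% to 1.81% of the counts of each library. Levels are given as counts per 1000000 (CPM) of library sizes scaled by the trimmed mean of M-values (TMM), and are not divided by length unless stated. The median member stood at 237 CPM against 43.2 for all tested genes. Of the 63 members, 49 averaged over 100 CPM, and 61 passed the filter on low counts. The other members were Srsf4, with 8 counts in all libraries together, and Prpf40b, with 37, and neither was tested. Srsf4 had 0 counts in male replicate 2 and at most 2.41 CPM in any library.

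**Figure D1:**
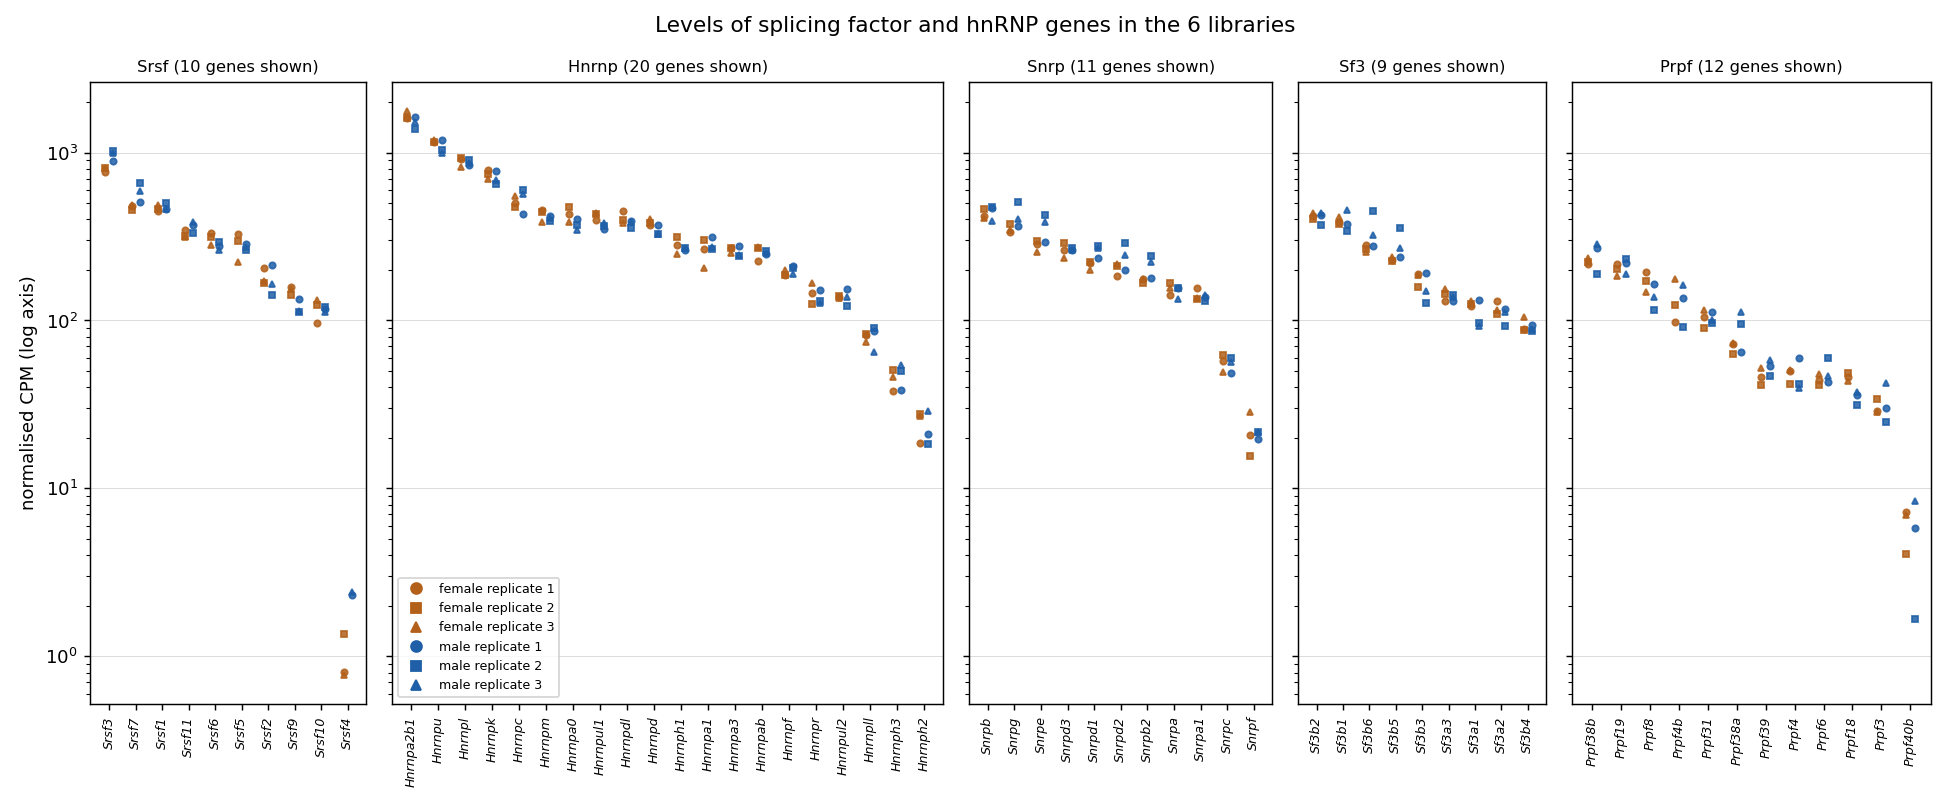
Normalised CPM (log axis) of the genes in the 3 female (orange) and 3 male (blue) libraries, by family and in falling order of the mean; 1 Prpf gene and the value of 0 for Srsf4 in male replicate 2 are not drawn. The libraries of both sexes lie close together for most genes, Hnrnpa2b1 is the highest at 1374 to 1779 CPM, and Srsf4 and Prpf40b lie far below the rest.

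No member passed the threshold for a difference between the sexes in the quasi-likelihood test of edgeR, with p-values adjusted by Benjamini-Hochberg over the 8460 tested genes and a threshold of 0.05. In that fit 36 genes were higher and 13 lower in males, 0.579% of those tested, and the smallest adjusted p of any member was 0.254, for Snrpe. The counts of members called were also 0 by DESeq2 and by limma-voom. At an unadjusted p under 0.05 edgeR gave 9 of the 61 tested members, DESeq2 4 and limma-voom 8. Over all 8460 tested genes the same tests gave 959, 499 and 933. In edgeR 8 of the 9 members were higher in males, 13.1% of tested members against 6.83% of all tested genes, and 1 was lower, 1.64% against 4.5%. By edgeR the share on the higher side was thus above that of all genes and the share on the lower side below it. Shares by direction were not taken for DESeq2 and limma-voom.

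The 95% intervals rest on the spread of these libraries, which may be technical. They therefore describe these samples and set no bound on a difference between the sexes in general. For 53 of 61 tested members the whole interval of the male to female ratio lay within 1.5-fold, against 3900 of 8460 tested genes, and for all 61 it lay within 2-fold. The median standard error of a log2 fold change was 0.13 in members and 0.20 in all tested genes. Fold changes ran from -0.39 for Prpf18 to 0.38 for Snrpe on the log2 scale, and 29 were above and 32 below 0. The median over members was -0.02, and over all tested genes 0.00.

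**Figure D2:**
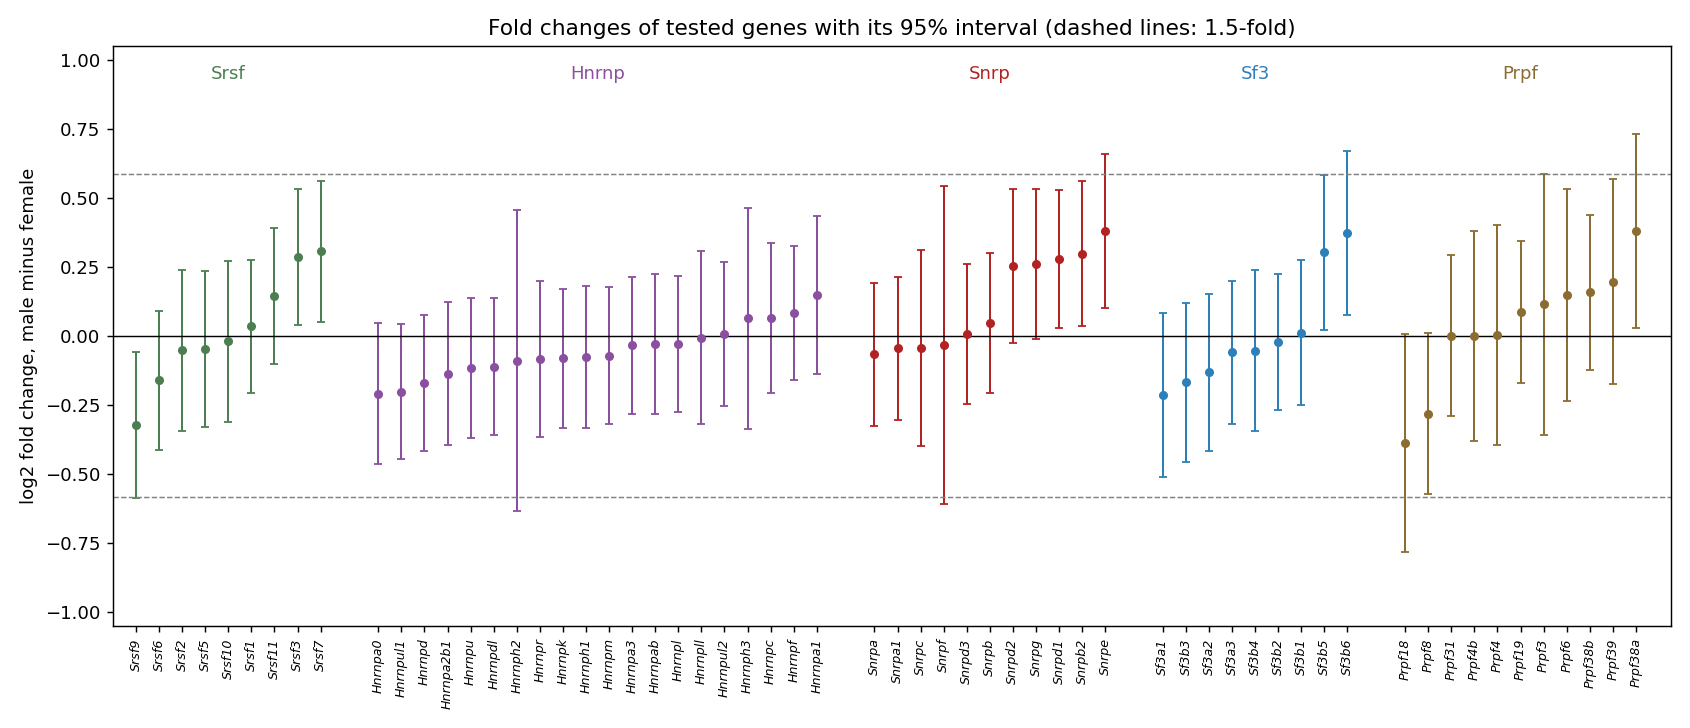
Fitted log2 fold change, male minus female, of the tested genes except 1 Prpf gene, ordered within their families, with the 95% interval as a bar; dashed lines mark a 1.5-fold difference either way. No point lies beyond 1.5-fold, 15 of 20 Hnrnp points lie below 0, and the 5 highest Snrp points stand apart from the other members of that family.

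The SR protein genes summed to 3104 ± 55.8 CPM over the 3 female libraries and 3355 ± 94.2 over the 3 male libraries (mean ± SD), a ratio of 1.08. Over all 21606 genes of the table, tested or not, the ratio of such sums was 1.07. That value is the background for the ratio of each family. Of the 9 tested Srsf genes, 4 had a fold change above 0, and the median was -0.02. Srsf3, a small SR protein that also takes part in mRNA export, had the highest CPM of the family, at 769, 805 and 810 CPM in females and 887, 1021 and 1000 in males. All 3 male libraries were above all 3 female ones, and the log2 fold change was 0.29 ± 0.12 (SE, edgeR adjusted p = 0.350). Srsf7, which like Srsf3 shuttles between nucleus and cytoplasm, showed 478, 454 and 490 CPM in females and 510, 660 and 590 in males. Its groups did not overlap either, with the excess mostly in male replicates 2 and 3, and its log2 fold change was 0.31 ± 0.12 (SE, edgeR adjusted p = 0.329).

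Srsf1, the founding SR protein, varied little, at 449, 459 and 484 CPM in females and 461, 502 and 464 in males. Its log2 fold change was 0.03, with a 95% interval from -0.21 to 0.27. Srsf9 was the 1 member lower in males at an unadjusted p under 0.05. It had 159, 141 and 154 CPM in females and 134, 113 and 113 in males, with no overlap, and a log2 fold change of -0.32 ± 0.13 (SE, edgeR adjusted p = 0.316). The other tested genes of the family, Srsf2, Srsf5, Srsf6, Srsf10 and Srsf11, had log2 fold changes from -0.16 to 0.14. Srsf2 shares exon bases with Mettl23 and Mfsd11 on the opposite strand, and whether counting took strand into account was not stated in the labels. Over all families 25 members share exon bases with another gene, and for 8 of them that gene has over 100 counts. These include Sf3a2, with Plekhj1 on the opposite strand (506 counts against 724), and Hnrnpm, with March2 on the same strand.

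The hnRNPs made up the largest sum, 8724 ± 67.0 CPM (female mean ± SD, n = 3) against 8242 ± 294 (male, n = 3), a ratio of 0.945. Fold changes were below 0 for 15 of 20, with a median of -0.07, and no member had an unadjusted p under 0.05. Hnrnpa2b1, which encodes the A2 and B1 proteins that bind and transport RNA, had the highest CPM of all 63 genes. It stood at 1600, 1601 and 1779 CPM in females and 1628, 1374 and 1524 in males. The groups overlapped, with male replicate 2 the lowest of the 6 libraries, and the log2 fold change was -0.14 ± 0.12 (SE, edgeR adjusted p = 0.746).

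Hnrnpu, a nuclear scaffold protein that binds RNA and chromatin, had 1161, 1158 and 1185 CPM in females and 1195, 1034 and 999 in males. The female libraries lay close together while the males ranged more widely, and the log2 fold change was -0.12 ± 0.12 (SE, edgeR adjusted p = 0.788). Hnrnpl, which binds CA-rich RNA and regulates alternative exons in lymphocytes and other cells, had 910, 929 and 820 CPM in females and 846, 898 and 864 in males. Its log2 fold change was -0.03, with an interval from -0.28 to 0.22. By subtype, 6 of 7 A/B type genes had a fold change below 0 (median -0.11), as did 2 of 3 U type genes (median -0.12), while F/H type genes were split 2 and 2 (median -0.01). Hnrnpul1, a relative of Hnrnpu, was chosen after its values were seen because it was the family's only gene with no overlap, at 396, 431 and 438 CPM in females and 351, 366 and 383 in males.

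The Snrp genes summed to 2293 ± 101 CPM (female mean ± SD, n = 3) against 2583 ± 246 (male, n = 3), a ratio of 1.13. On the log2 scale this ratio was 0.17, and it was 0.10 without male replicate 2, when that of the Prpf genes was 0.11, and 0.23 without male replicate 1. Most of the family's counts lie in the Sm ring, the 7 proteins shared by most of the spliceosomal snRNPs. The Sm ring genes summed to 1730, 1874 and 1693 CPM in females and 1843, 2260 and 1980 in males. Male replicate 1 lay within the female range and male replicate 2 was the highest. Fold changes were above 0 for 6 of the 7 genes, with a median of 0.25, and 2 of them, Snrpe and Snrpd1, had an unadjusted p under 0.05.

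Snrpe, a core Sm protein gene, had 286, 297 and 257 CPM in females and 292, 422 and 384 in males. Male replicate 1 lay among the females and the other male libraries above them, and the log2 fold change was 0.38 ± 0.13 (SE, edgeR adjusted p = 0.254). Snrpg, also of the ring, had 334, 378 and 348 CPM in females and 365, 509 and 402 in males, a log2 fold change of 0.26 ± 0.13 (SE, edgeR adjusted p = 0.464). Snrpb, which encodes the SmB and SmB' proteins, had the highest CPM of the family, 421, 459 and 407 CPM in females and 468, 472 and 392 in males. Its log2 fold change was 0.05, with an interval from -0.21 to 0.30. Differences between ring genes were not tested.

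Of the remaining ring genes, Snrpd1 and Snrpd2 had log2 fold changes of 0.28 and 0.25, Snrpd3 0.01 and Snrpf -0.03. Snrpf was the lowest of the ring at 21.4 CPM, and its interval, from -0.61 to 0.54, was the widest of the 7. The U1 proteins Snrpa and Snrpc had -0.07 and -0.04. Of the U2 proteins, Snrpa1 had -0.05 and Snrpb2 0.30, and their sum was 315 ± 16.1 CPM in females and 351 ± 31.2 in males (SD, n = 3 each). The last 500 bases of Snrpa, Snrpc, Snrpd1 and Snrpe match a pseudogene at 95% identity or more over at least 81 bases, so their counts depend on how reads with several matches were treated. For Snrpe and Snrpc no such pseudogene has counts in the table, and for Snrpd1 it has 14, against 1455 for the gene. Matches to another gene, on either strand, were not confined to this family and were found for 14 of the 63 members. In 6 of them, Snrpa, Snrpc, Snrpd1, Snrpe, Prpf19 and Sf3b4, a match was to a pseudogene. Hnrnpab matched 42 other genes and Hnrnpa3 4. Some other matches, as of Prpf39 to Fkbp3, were to genes that share exon bases with the member.

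The Sf3 genes, whose proteins hold the U2 snRNP at the branch point, summed to 1967 ± 68.5 CPM (female mean ± SD, n = 3) against 2038 ± 47.5 (male, n = 3), a ratio of 1.04. Sf3b2 and Sf3b1 had the highest CPM of the family, not divided by length. Sf3b2 had 418, 404 and 434 CPM in females and 424, 373 and 436 in males, and Sf3b1, the large subunit that holds the branch point, had 385, 373 and 412 in females and 376, 341 and 458 in males. Their log2 fold changes were -0.02 and 0.01, with intervals from -0.27 to 0.22 and from -0.25 to 0.27.

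Sf3b6, the small p14 subunit at the branch point, had 280, 267 and 256 CPM in females and 278, 449 and 322 in males. Male replicate 1 lay among the females and male replicate 2 was the highest, and the log2 fold change was 0.37 ± 0.14 (SE, edgeR adjusted p = 0.302). Sf3b5, another small subunit, had a log2 fold change of 0.30. All males were above all females, but barely, at 238.8 CPM in male replicate 1 against 238.6 in female replicate 3. The 3 SF3a genes were all below 0, with a median of -0.13. Sf3a1, the largest SF3a subunit, had 122, 125 and 131 CPM in females and 133, 96.5 and 92.8 in males, a log2 fold change of -0.22 ± 0.14 (SE, edgeR adjusted p = 0.609). The median coefficient of variation of the family was 15.3% in males and 5.07% in females, against 9.71% and 7.99% over all members. Over all tested genes it was 17.3% in males and 11.7% in females.

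The Prpf genes, named for the yeast pre-mRNA processing mutants, summed to 1421 ± 64.4 CPM (female mean ± SD, n = 3) against 1472 ± 117 (male, n = 3), a ratio of 1.04. Fold changes were above 0 for 10 of 12 tested genes, with a median of 0.10, but 3 of the 10 lay below 0.01. Prpf38b, a homologue of a tri-snRNP protein, had 217, 223 and 234 CPM in females and 270, 190 and 286 in males, with a log2 fold change of 0.16. Prpf19, the ubiquitin ligase of the complex named after it, had 216, 204 and 183 CPM in females and 220, 233 and 189 in males, with a log2 fold change of 0.09. The groups overlapped in both.

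Prpf38a, the other homologue, had the highest fold change of the family, with 72.5, 63.0 and 73.1 CPM in females and 65.2, 94.8 and 112 in males. Male replicate 1 again lay among the females, and the log2 fold change was 0.38 ± 0.17 (SE, edgeR adjusted p = 0.388). Prpf8, the large protein at the heart of the spliceosome, had 195, 172 and 149 CPM in females and 165, 115 and 139 in males, a log2 fold change of -0.28 ± 0.14 (SE, edgeR adjusted p = 0.455). Prpf18, which acts in the second step of splicing, had 45.9, 48.8 and 43.9 CPM in females and 36.1, 31.6 and 37.4 in males. Its groups did not overlap, and its log2 fold change was the lowest of all members, -0.39 ± 0.19 (SE, edgeR adjusted p = 0.448). The 5 tri-snRNP genes had a median of 0.00, with Prpf3, Prpf4, Prpf6 and Prpf31 from 0.00 to 0.15. Prpf39 had 308 counts and shares 599 exon bases with Fkbp3, on the opposite strand, which had 579.

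The orders given so far are of CPM not divided by length. Divided by length, as CPM per kilobase of the principal transcript, the order was different within some families, and on this scale 3'-end reads favour short transcripts. Hnrnpa2b1 led at 953 CPM per kilobase, followed by Snrpe at 642, Snrpb at 376, Snrpg at 369, Srsf3 at 337 and Hnrnpl at 328. The leading genes of the other families on this scale were Sf3b6 at 262, against 129 for Sf3b2 and 63.1 for Sf3b1, and Prpf19 at 97.2.

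The male libraries differed among themselves. All 3 males were above all 3 females in 5 members, Srsf3, Srsf7, Sf3b5, Snrpd1 and Snrpb2, which is 8.20% of tested members against 7.57% of all tested genes. In Sf3b5 and Snrpb2 the lowest male barely exceeded the highest female, for Snrpb2 at 178 against 177 CPM. All 3 females were above all 3 males in 3, Srsf9, Hnrnpul1 and Prpf18, which is 4.92% against 8.03%. The first share was near that over all genes and the second lower, with no test of either difference. In each of the 8 members higher in males at an unadjusted p under 0.05, male replicate 1 was the lowest male, and in 7 of them male replicate 2 was the highest of the 6 libraries. Over the 578 tested genes that passed the same threshold, male replicate 1 was the lowest male in 69.9% and male replicate 2 the highest library in 70.1%. All 8 members, like these genes, were counted for being higher in males.

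Leaving out male replicate 1 changed the members' calls. Without it edgeR called 5 members higher in males, 8.20% of those tested, while 332 of 8460 genes were called higher, 3.92%, and 77 lower. In GENCODE M21 coordinates (GRCm38) the 5 genes lie at chr1:133603871-133610291 (Snrpe), chr12:4817544-4827659 (Sf3b6), chr4:108563172-108579336 (Prpf38a), chr17:80200080-80207307 (Srsf7) and chr2:143063039-143072853 (Snrpb2). Their values were those of Snrpe (log2 fold change 0.52 ± 0.12, SE, edgeR adjusted p = 0.00758), Sf3b6 (0.51 ± 0.13, 0.0173), Prpf38a (0.59 ± 0.16, 0.0262), Srsf7 (0.40 ± 0.11, 0.0335) and Snrpb2 (0.42 ± 0.12, 0.0424). Without male replicate 2, which is the smallest library at 679724 counts, no member was called by edgeR and the smallest adjusted p was 0.516. At an unadjusted p under 0.05 were 4 members and 660 of all 8460 genes. The log2 fold changes were then 0.27 for Snrpe, 0.16 for Sf3b6, 0.35 for Prpf38a and 0.22 for Srsf7. Leaving out female replicate 1, 2 or 3 or male replicate 3 also gave 0 called members. Members at an unadjusted p under 0.05 in edgeR were then 4, 4, 8 and 3, and all tested genes 751, 796, 745 and 690. Without male replicate 3 the log2 fold change of Prpf38a was 0.17.

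In male replicate 2 the median deviations of the families went in different directions. In each library the deviation of a gene is its log2(CPM + 1) minus its mean over the 6 libraries. In male replicate 2 the median deviation was 0.12 for the Snrp genes and 0.23 for the Sm ring, but -0.09 for Hnrnp, -0.13 for Prpf and -0.15 for Sf3, while over all tested genes it was 0.00. The Srsf median there was 0.01. The Sf3 genes were split, with male replicate 2 the highest library for 2 of 9 and the lowest for 5. Their sum in that library was 2062 CPM, against 1973, 1895 and 2032 in females. In male replicate 1 the median deviations were -0.08 for Snrp and 0.03 for Hnrnp, and the Snrp median was also below 0 in all 3 female libraries. Male replicate 2 held the highest value of 15 and the lowest of 19 of the 61 tested members, 24.6% and 31.1%, against 26.1% and 26.3% of all tested genes. Among the 7 Sm ring genes it was highest in 5. Principal transcripts of the ring genes ran from 503 nt for Snrpe to 3036 nt for Snrpd3. Over tested protein-coding genes it was highest in 63.4% of those under 1000 nt, 41.8% from 1000 to 2000 nt and 20.6% from 2000 to 4000 nt.

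**Figure D3:**
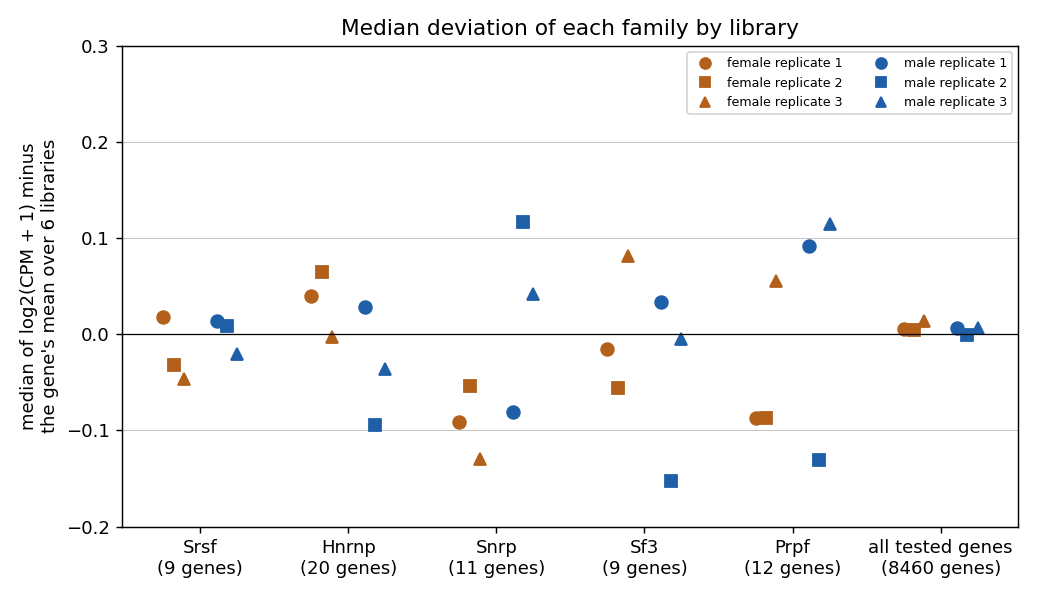
Median over the tested genes of each family of log2(CPM + 1) minus the gene's mean over 6 libraries, for the 3 female (orange) and 3 male (blue) libraries, beside all 8460 tested genes. Male replicate 2 is the highest library for Snrp (0.12) and the lowest for Hnrnp (-0.09), Sf3 (-0.15) and Prpf (-0.13), and all tested genes lie near 0 in every library.

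Transcript length moved with that library over all genes. Among tested protein-coding genes, the median deviation in male replicate 2 was 0.31 for 527 genes with a principal transcript under 1000 nt, 0.15 for 1736 from 1000 to 2000 nt, -0.03 for 3321 from 2000 to 4000 nt and -0.17 for 2556 of 4000 nt or more. Male replicate 3 went the same way, from 0.15 for the shortest to -0.03 for the longest. The order was the reverse in the other 4 libraries, from -0.13 to 0.05 in male replicate 1, -0.11 to 0.06 and -0.05 to 0.04 in female replicates 1 and 2, and -0.15 to 0.11 in female replicate 3. The median log2 fold change of these genes was 0.20 under 1000 nt, 0.08 from 1000 to 2000 nt, -0.02 from 2000 to 4000 nt and -0.10 at 4000 nt or more. Members showed both ends: 4 genes under 1000 nt had a median of 0.17 in male replicate 2, and 13 of 4000 nt or more had -0.17. Between them the members did not follow the trend, with -0.01 for 15 genes from 1000 to 2000 nt and 0.01 for 29 from 2000 to 4000 nt. The members' own median log2 fold changes were 0.12, -0.05, -0.01 and 0.00, from the shortest genes to the longest. The median principal transcript was 1161 nt in the Snrp family, 1055 nt in the Sm ring and 2618 to 3333 nt in the other families. The Sm ring median of 0.25 thus stood beside 0.20 for all tested protein-coding genes under 1000 nt and 0.08 for those from 1000 to 2000 nt, and no fit corrected for length was made.

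**Figure D4:**
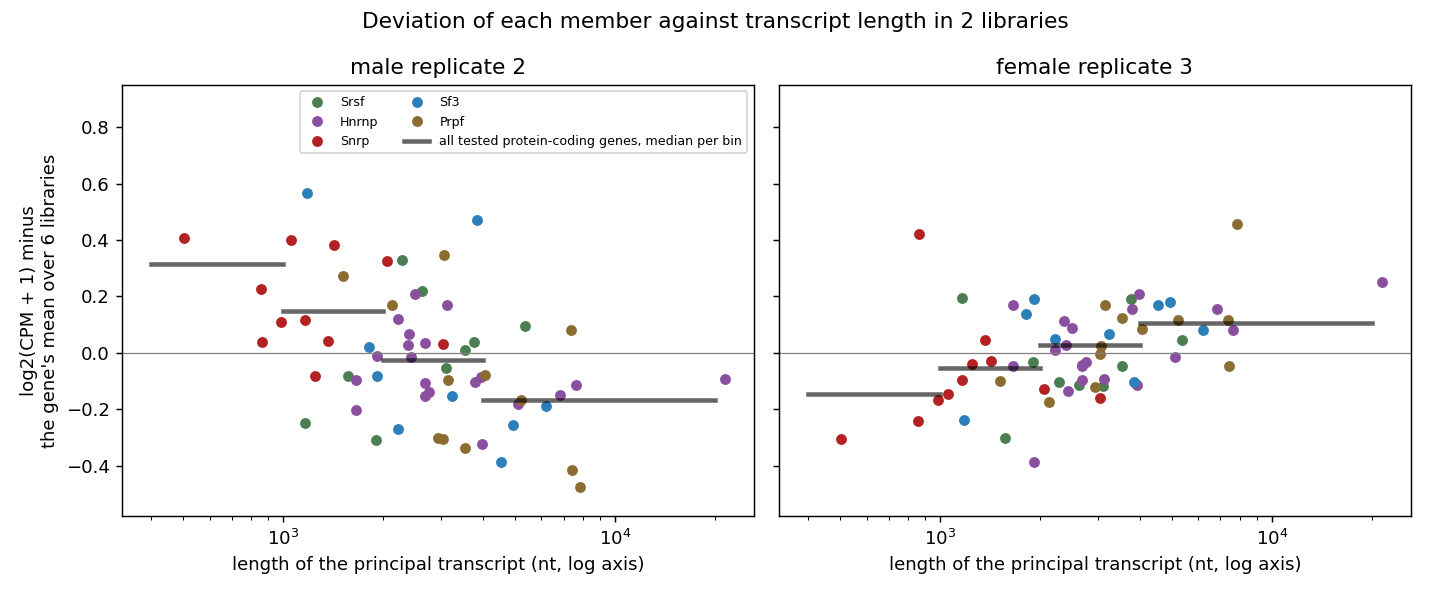
Deviation of each tested member (points, coloured by family) in male replicate 2 (left) and female replicate 3 (right) against the length of its principal transcript (log axis), with the median of all tested protein-coding genes in 4 length bins as grey bars. The bars fall from 0.31 to -0.17 in male replicate 2 and climb from -0.15 to 0.11 in female replicate 3, and the short Snrp genes lie mostly above 0 on the left.

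Of 137 other splicing genes, listed for U1 and U2 recognition, the tri-snRNP and LSm ring, the Prpf19 complex and catalytic steps, exon junction and export, regulators and SR protein kinases, 130 were tested. None was called by edgeR, DESeq2 or limma-voom, with 11, 8 and 12 at an unadjusted p under 0.05. The 11 are 8.46% of those tested, against 11.3% of all tested genes. In edgeR 5 of the 11 were higher and 6 lower in males, and the median log2 fold change was 0.00, with 66 above 0. The gene with the highest CPM in each list had a log2 fold change from -0.14 to 0.20: Luc7l3, a U1-associated protein, 0.20, Alyref, an export adaptor, 0.17, Lsm4, of the LSm ring, 0.08, Srpk1, an SR protein kinase, 0.06, Mbnl1, a splicing regulator, -0.12, and Srrm2, a scaffold of nuclear speckles, -0.14. The smallest adjusted p was that of Rbm3, a cold-inducible RNA-binding protein, chosen after its values were seen. It had 65.2, 67.7 and 56.2 CPM in females and 78.0, 135 and 106 in males, a log2 fold change of 0.72 ± 0.17 (SE, edgeR adjusted p = 0.0501).

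Marker and state lists were read in the same fit. Of 12 markers of myeloid progenitors and granulocyte precursors, the cells this sort is known to take, 11 were tested and 0 called by edgeR, DESeq2 or limma-voom (2, 2 and 3 at an unadjusted p under 0.05). Mpo, the myeloperoxidase gene, had the highest CPM of them, 7639 ± 224 CPM in females and 6332 ± 284 in males (SD, n = 3 each). The list was mixed: 6 of the 11 fold changes were above 0, with a median of 0.06. The 2 genes at an unadjusted p under 0.05 in edgeR were higher in males. The list summed to 15366 to 16072 CPM in females and 13800 to 14784 in males. Cell division genes, 16 tested and 0 called by the same tests (2, 1 and 2 at an unadjusted p under 0.05), summed to 4459 to 4693 CPM in females and 4467 to 4696 in males. Early stress genes differed between the groups: 11 of 18 were called higher in males by edgeR, with sums of 5906 to 6213 CPM in females and 7766 to 9363 in males. Sex and the handling of the samples cannot be told apart in this design. The 4 with the smallest p were Hspa1b, Hspa1a, Egr1 and Atf3, with log2 fold changes of 1.69, 1.78, 1.31 and 1.44.

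Genes of other cell types were also present. Lung epithelial genes summed to 151 to 206 CPM in females and 236 to 471 in males, highest in male replicate 2, with 0 of 5 tested genes called by edgeR, DESeq2 or limma-voom (4, 3 and 3 at an unadjusted p under 0.05); the one with the highest CPM was Sftpc. Erythroid genes summed to 181 to 197 CPM in females and 287 to 434 in males, again highest in male replicate 2, with Car1 (log2 fold change 1.67) and Car2 (1.52) called. Pf4 of megakaryocytes (1.92) and Cpa3 of mast cells (1.44) were called higher in males by all 3 tests. Ms4a1 of B cells (-2.36) was called lower by edgeR, and no B cell gene was called by DESeq2 or limma-voom. Of the stroma list 3 genes were tested and 0 called by the 3 tests (3, 2 and 2 at an unadjusted p under 0.05), and of the neutrophil list 1 was tested and 0 called (0 at an unadjusted p under 0.05). T and natural killer cell genes reached at most 6.65 CPM in sum, with none tested. The part of these differences in the members' values was not tested, and in such bulk libraries fewer cells of a type and less RNA per cell cannot be told apart.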

How the data were processed

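RNA was measured by BRB-seq in 3 female and 3 male libraries, grouped by the sex and number in their titles. The authors deposited a count of reads for each gene and library, not normalized, per the file headers and the whole-number values. The submitters' processing notes name HISAT2 2.2.1, Trim Galore 0.6.7, UMI-tools, DESeq2 and featureCounts 2.0.1, beside the builds GRCm38 and GRCh38. Whether reads sharing a molecular identifier were collapsed is not stated there, so counts may hold PCR copies.

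All rows named a gene. All 63 members were found in GENCODE M21 (GRCm38) on the chromosome of the table. In R 4.3.3, edgeR 4.0.16 kept 8460 genes with filterByExpr (minimum count 10, minimum total 15) and left out 13146. After TMM scaling the quasi-likelihood F test compared males with females, without covariates, and Benjamini-Hochberg adjustment took in every tested gene. The common biological coefficient of variation came to 0.102. Intervals of fold changes are 95% intervals. Deviations use a pseudocount of 1 CPM. Without a library, the same 8460 genes were tested. On simulated data for this comparison, over 8460 genes, the test recovered 23.2% of genes with a log2 change of 0.5, 82.5% at a change of 1 and 100% at 2.

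Members given in full are the 3 with the highest CPM of each family and the 4 highest and 4 lowest fold changes; other lists give up to 4 called genes or the one with the highest CPM. The values of 1 gene that this rule names are not reported here. The members, lists and alternatives were chosen with earlier results of these data known. Alternatives were scaling by RLE or by library size, a stricter filter or none, DESeq2 1.42.0, limma-voom (limma 3.58.1), the replicate number as a block, and each library left out. Same-numbered libraries of the 2 sexes correlated at 0.030, 0.034 and 0.048 in their deviations from the group means, all under 0.1, so the numbers were not taken to pair them. Transcripts' last 500 bases were compared with all M21 transcripts by blastn.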

Additional observations from a re-analysis of the deposited data

How the results depend on the processing

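The count of 0 members called in either direction held under every alternative except 1. Without each library in turn, 0 to 5 members were called higher in males, the 5 without male replicate 1. Over all tested genes the same omissions gave 19 to 332 calls higher and 4 to 77 lower, against 36 and 13 with all libraries. Other settings moved these counts as well, to 81 and 35 with no filter, and to 23 lower with library size alone, 7 lower with DESeq2 and 8 lower with limma-voom. With the replicate block 56 genes were called higher and 22 lower, none of them a member, and each library correlated best with its own number. Scaling by library size put the median log2 fold change of all genes at -0.0924, and the medians at -0.110 for all members and for Srsf, -0.168 for Hnrnp, -0.0465 for Snrp and -0.143 for Sf3. On that scale the log2 ratios of summed CPM were -0.0811 for all members, 0.0141 for Srsf, -0.175 for Hnrnp and -0.0459 for Sf3, and the ratio for all members was 0.0185 with RLE. With no filter the medians of all members and of Srsf were -0.0524. Leaving out a library gave medians from -0.0247 to 0.0135 for all members, -0.0308 to 0.0646 for Srsf, -0.0895 to 0.00194 for Hnrnp and 0.00220 to 0.214 for Snrp. Fold changes near 0 changed sign with library size for Prpf19 (-0.00766), Sf3b1 (-0.0816), Snrpb (-0.0465) and Srsf1 (-0.0625), and with no filter for Sf3b1 (-0.0204). With a library left out they ran from -0.0821 to 0.0135 for Hnrnpl, -0.118 to 0.0966 for Sf3b1, -0.0684 to 0.0393 for Sf3b2 and -0.00524 to 0.0646 for Srsf1. With no filter the median of all genes was -0.0562. The cause of these shifts was not tested. Srsf4 and Prpf40b had too few counts to be tested, and low expression and depth were not told apart for them.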
